A study of Mus musculus with 15 samples.

Results

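The SLC25 family is the main set of transport proteins in the inner membrane of the mitochondrion. Its members were taken as every gene in the count table whose symbol is Slc25a followed by a number, which gave 44 of 23337 genes. Of these, 37 had enough counts to be tested (the low-count filter kept 11814 genes in all) and 7 did not. The data are 15 RNA-seq libraries of heart muscle cells that had been sorted by FACS from mice at 4 weeks of age, 5 for each of 3 adeno-associated virus (AAV) vectors given on postnatal day 1. The groups were AAV-ATF4-2A-GFP (called ATF4), AAV-DDIT3-2A-GFP (called DDIT3) and AAV-GFP (called GFP). All 3 were made in Rosa-Cas9GFP mice, so that Cas9 and GFP from the Rosa locus were shared by every group. Neither the vectors' promoter nor the sort gate is stated. ATF4 is the main transcription factor of the integrated stress response, and DDIT3, also known as CHOP, is a transcription factor of the same response.

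The inner mitochondrial membrane lets few solutes through, and each SLC25 carrier exchanges or imports a particular one. ADP/ATP carriers export newly made ATP in exchange for ADP, and the phosphate carrier brings in the phosphate that ATP synthase needs. Other carriers move the acids of the malate-aspartate shuttle, acylcarnitines for fat oxidation, amino acids, nucleotides, cofactors, iron and glutathione. A heart muscle cell, packed with mitochondria, depends on the first of these at every beat.

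Library totals ran from 6217744 to 8317249 counts. Both vector genes were higher in the group that carried them: Atf4 stood at 400 ± 79.5 CPM in ATF4 and 71.2 ± 12.2 CPM in GFP, and Ddit3 at 844 ± 180 CPM in DDIT3 and 15.6 ± 1.28 CPM in GFP (SD, n = 5; CPM are counts per 1000000 scaled with TMM factors). Ddit3 also rose in the group given ATF4, at 29.5 ± 7.62 CPM in ATF4 and 15.6 ± 1.28 CPM in GFP (log2 fold change 0.91 ± 0.17 SE, edgeR adjusted p = 6.1e-04). Cardiomyocyte markers made up most of the marker signal, with a summed level of 85450 to 95240 CPM in ATF4, 106400 to 116500 in DDIT3 and 102700 to 131200 in GFP for 8 genes, of which 5 fell in ATF4 against GFP. The 10 endothelial markers summed to 969.6 to 1411 CPM in ATF4, 414.9 to 708 in DDIT3 and 435.2 to 880.2 in GFP, and 8 of the 10 rose in ATF4 against GFP. In that comparison 4 of 7 pericyte and smooth muscle markers, 1 of 7 tested fibroblast markers and 1 of 4 atrial markers also rose, while edgeR called 0 of 3 tested leukocyte markers. Of all genes tested, 16.5% rose and 15.6% fell in ATF4 against GFP. The 4 atrial markers summed to 599.9 to 1153 CPM in ATF4, 479 to 1439 in DDIT3 and 136.5 to 496 in GFP. The part of these markers in the carrier results was not tested. In sorted bulk RNA, fewer cells of a type and less RNA per cell cannot be told apart. ATF4 replicate 2 and DDIT3 replicate 2 stood apart from the rest on the second principal component (scores 40.6 and 35.2, 11.4% of the variance), and GFP replicate 5 is labelled SMART-Seq3 where the other libraries are labelled SMART-Seq2.

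Sequences are shown for 4 members on which the results turn: the ADP/ATP carrier pair Slc25a5 and Slc25a4, which moved apart, and Slc25a33 and Slc25a39, the pair of risers in ATF4 with the smallest p-values. Each line holds the 150 bases before the RefSeq start site (GRCm38.p6, the build of mm10), read 5′ to 3′ on the gene's strand, with capitals for the E-box CACGTG, for the CCAAT box and for the SP1 box GGGCGG, each on either strand. For Slc25a39 that start site lies inside the gene's annotated span. The windows are chrX:36795447-36795596 (plus strand), chr8:46211063-46211212 (minus), chr4:149774268-149774417 (minus) and chr11:102407518-102407667 (minus).
Slc25a5: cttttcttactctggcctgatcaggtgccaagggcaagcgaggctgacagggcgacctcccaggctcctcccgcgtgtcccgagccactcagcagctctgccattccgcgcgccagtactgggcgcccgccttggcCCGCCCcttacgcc
Slc25a4: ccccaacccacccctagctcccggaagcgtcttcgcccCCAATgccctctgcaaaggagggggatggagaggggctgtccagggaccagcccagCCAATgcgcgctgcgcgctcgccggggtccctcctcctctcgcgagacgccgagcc
Slc25a33: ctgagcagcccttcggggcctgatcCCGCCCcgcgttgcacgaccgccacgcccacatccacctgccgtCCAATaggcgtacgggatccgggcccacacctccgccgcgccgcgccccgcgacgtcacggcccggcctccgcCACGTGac
Slc25a39: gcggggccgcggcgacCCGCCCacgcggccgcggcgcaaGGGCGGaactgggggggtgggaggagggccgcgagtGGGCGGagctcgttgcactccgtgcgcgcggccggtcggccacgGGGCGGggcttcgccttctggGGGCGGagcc

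Across windows from 250 bases before to 50 after the start site, 29 of the 37 tested members were matched to a RefSeq window. CACGTG, the E-box bound by MYC and related factors, was found in 6 of these 29 (20.7%) and in 12.1% of 8493 tested genes with a window. CCAAT stood in 17 of the 29 (58.6%, against 43.0%) and GGGCGG, the box bound by SP1, in 26 (89.7%, against 70.5%). TGATGNAA, the core of the element that ATF4 binds together with C/EBP factors, was found in 0 of the 29 on either strand and in 2.80% of tested genes. TCAAGGTCA, bound by the estrogen-related receptors, was found in 0 of the 29 and in 0.353%. These are letter matches in short windows, and TGATGNAA apart, the motifs were chosen with the expression results known.

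The transcript levels of the family spanned 4 orders of magnitude, and one gene held most of it. Slc25a4 (Ant1), the ADP/ATP carrier of heart and skeletal muscle, reached 11160 ± 1253 TPM in ATF4, 16880 ± 625 in DDIT3 and 16750 ± 1664 in GFP (TPM are counts per kilobase of gene length scaled to a sum of 1000000). That was 65.6 ± 2.12% of all SLC25 TPM in ATF4, 75.0 ± 1.16% in DDIT3 and 73.8 ± 2.28% in GFP (SD, n = 5). Next in GFP came the phosphate carrier Slc25a3 at 2265 ± 148 TPM, the 2-oxoglutarate/malate carrier Slc25a11 at 1058 ± 37.2, the second ADP/ATP carrier Slc25a5 (Ant2) at 694 ± 67.2 and the aspartate/glutamate carrier Slc25a12 (Aralar) at 336 ± 30.2. Slc25a20 at 291 ± 19.4 and Slc25a39 at 248.5 ± 16.6 TPM followed. In this order each of the first 6 members lay above the next by more than its own SD. In ATF4 the order changed below the second place: Slc25a5 stood at 1088 ± 125 TPM, above Slc25a11 at 763.5 ± 88.8, and Slc25a39 at 566.6 ± 57.2, above Slc25a12 at 256.2 ± 29.9. Summed over the family, CPM came to 9653 ± 1409 in ATF4, 14020 ± 580 in DDIT3 and 14250 ± 1146 in GFP. Without Slc25a4 the sums were 4455 ± 490 CPM in ATF4, 5053 ± 234 in DDIT3 and 5336 ± 175 in GFP. On the TPM scale, the family without Slc25a4 came to 5828 ± 287 in ATF4, 5629 ± 226 in DDIT3 and 5929 ± 311 in GFP, so that the size of this difference depends on the scale, and for ATF4 against DDIT3 so does its direction (lower in CPM, higher in TPM).

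**Figure D1:**
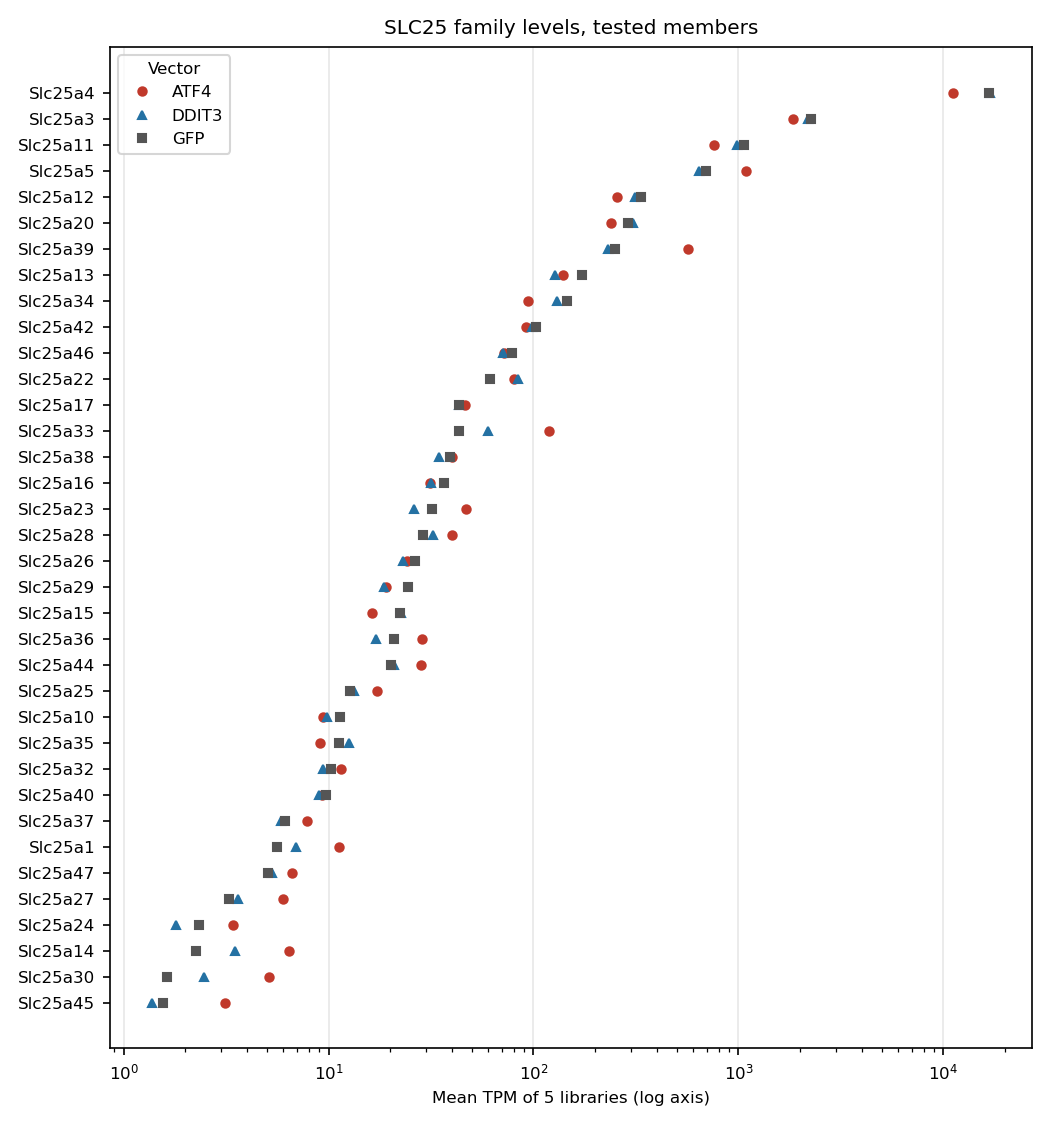
Mean TPM of 36 tested SLC25 members in ATF4 (circles), DDIT3 (triangles) and GFP (squares) on a log axis, n = 5 libraries each, ordered by the GFP level. Slc25a4 stands at the top with 16750 TPM in GFP, and Slc25a45 at the bottom with 1.55 TPM.

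The first comparison, ATF4 against GFP, asked which carriers changed when ATF4 was raised. In it 17 of 37 tested members were called (edgeR quasi-likelihood, p adjusted by Benjamini-Hochberg over all genes, threshold 0.05), against 32.2% of all genes tested. Of these members 10 fell (all genes 15.6%) and 7 rose (all genes 16.5%). The median log2 fold change was -0.108 over the tested members and 0.0244 over all genes tested. In 14 members the libraries of the 2 groups did not overlap (21.4% of all genes). The 7 risers were Slc25a30, Slc25a14, Slc25a33, Slc25a39, Slc25a5, Slc25a23 and Slc25a44, and those that fell included Slc25a34, Slc25a4, Slc25a11, Slc25a15, Slc25a12, Slc25a13, Slc25a3, Slc25a20 and Slc25a16. Of the 18 tested members above the median level of 32.8 CPM, 5 rose and 9 fell, and of the other 19, 2 rose and 1 fell. The shares of all genes called above and below that level are not given here, so this split is not read as a trait of the family. The authors' deposited table called 8 members higher and 11 lower in this comparison, adding Slc25a1 to the risers and Slc25a29 to those that fell.

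**Figure D2:**
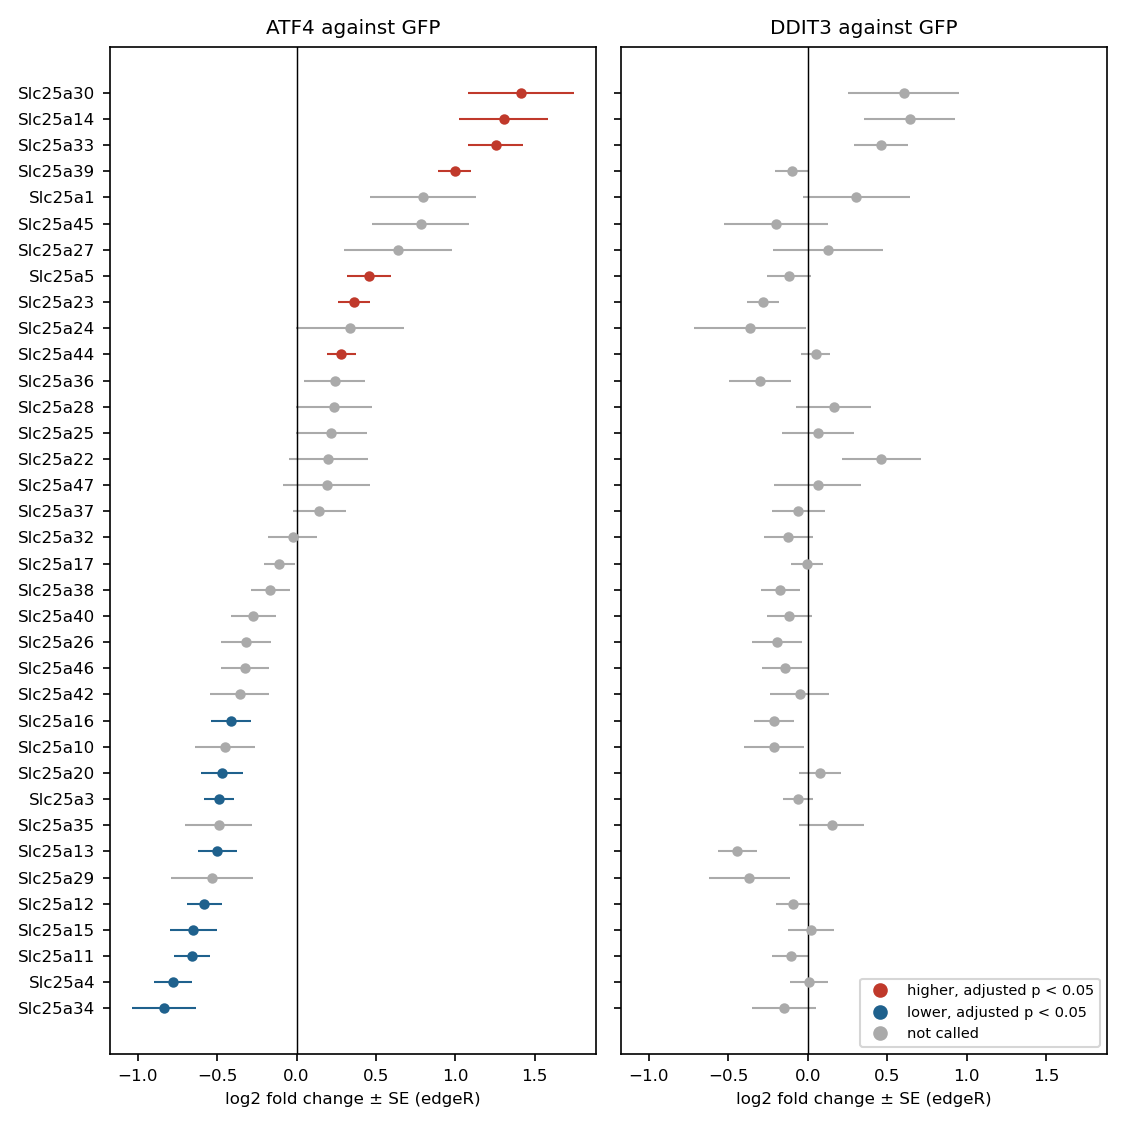
Log2 fold change with its SE (edgeR) of 36 tested members in ATF4 against GFP (left) and DDIT3 against GFP (right), both ordered by the left panel. In the left panel 7 of these are called higher and 9 lower, and in the right panel 0 are called.

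The carriers of ADP, ATP and phosphate did not move as one. Slc25a4 (chromosome 8, 46207168 to 46211062) had 4174, 4370, 6084, 6263 and 5095 CPM in ATF4 libraries, against 7625, 10750, 8570, 9075 and 8551 CPM in GFP libraries. Every ATF4 library lay below every GFP library, and the log2 fold change was -0.78 ± 0.12 (SE, edgeR adjusted p = 7.9e-05), in the libraries whose cardiomyocyte markers summed lower. Slc25a3 (chromosome 10, 91116574 to 91124046) had 1058, 994.4, 1375, 1201 and 1235 CPM in ATF4 and 1582, 1694, 1685, 1541 and 1708 CPM in GFP. Those groups too were apart, by -0.49 ± 0.09 (edgeR adjusted p = 6.7e-04). Slc25a5 (chromosome X, 36795597 to 36798808), the ADP/ATP carrier found in most tissues, went the other way. It had 484.6, 436.6, 615.2, 681.8 and 617.9 CPM in ATF4, against 340.3, 401.4, 416.5, 446 and 461.5 CPM in GFP. ATF4 replicate 2 lay within the GFP range, and the difference of 0.46 ± 0.14 (edgeR adjusted p = 0.0174) had an adjusted p of 0.0508 without ATF4 replicate 4. Endothelial cells also express this gene, and the part that the higher endothelial markers had in its rise was not tested. Reads of Slc25a5 and of its near-identical processed copies may be confused, since how multi-mapped reads were counted is not stated.

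The calcium-regulated ATP-Mg/phosphate carriers gave 1 call of 3 tested, near the 32.2% of all genes called. Slc25a23 (chromosome 17, 57043711 to 57059909) had 68.9, 59.7, 71.6, 58.6 and 70.4 CPM in ATF4 and 57.7, 46.7, 56.4, 49.6 and 46.2 CPM in GFP. The groups were apart by a narrow margin, with a rise of 0.36 ± 0.10 (edgeR adjusted p = 0.0113). Its relatives Slc25a24 and Slc25a25 differed by 0.34 ± 0.34 and 0.22 ± 0.23 without passing the test. Of the carriers tied to coenzyme A, Slc25a16 fell by 0.41 on the log2 scale (SE 0.13, edgeR adjusted p = 0.0181), Slc25a42 differed by -0.36 ± 0.19 and the peroxisomal carrier Slc25a17 by -0.11 ± 0.10.

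Carriers of the malate-aspartate shuttle, which passes electrons of cytosolic NADH into mitochondria, fell in ATF4. Of 4 tested carriers of aspartate, glutamate and 2-oxoglutarate, 3 fell (all genes 15.6%) and 0 rose (all genes 16.5%). Slc25a11 (chromosome 11, 70644019 to 70647531) had 540.1, 440.8, 728.4, 669.3 and 615 CPM in ATF4, against 877.8, 948.5, 965.9, 984.8 and 947.8 CPM in GFP (-0.66 ± 0.11 on the log2 scale, edgeR adjusted p = 2.6e-04). It overlaps Rnf167 on the genome, as Slc25a3, Slc25a12, Slc25a39 and Slc25a44 overlap Gm24119, Gm13641, Mir6930 and Gm33513, and unstranded reads of such neighbours cannot be told apart. Slc25a12 (chromosome 2, 71274270 to 71367781) had 312.5, 233.4, 316.9, 355.7 and 353.5 CPM in ATF4, against 480, 468.4, 470.1, 426.2 and 504.8 CPM in GFP (-0.58 ± 0.11, edgeR adjusted p = 5.3e-04). Slc25a13 (citrin; chromosome 6, 6041218 to 6217304) had 193.4, 132.4, 193.7, 198.4 and 196.3 CPM in ATF4, against 275.1, 241.7, 254.4, 226.9 and 292.9 CPM in GFP (-0.50 ± 0.12, edgeR adjusted p = 0.00422). In all 3 genes the ATF4 libraries lay below all GFP libraries, with ATF4 replicate 2 the lowest. Groups did not overlap in 21.4% of all genes. The glutamate carrier Slc25a22 differed by 0.20 ± 0.25 and ranged from 42.2 to 126 CPM within GFP alone.

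The shuttle's enzymes are the aspartate aminotransferases and malate dehydrogenases. The mitochondrial Got2 stood at 516 ± 74.7 CPM in ATF4 and 990 ± 67.7 CPM in GFP (-0.94 ± 0.10, edgeR adjusted p = 1.7e-06). Mdh1 and Mdh2 fell by 0.51 and 0.61 on the log2 scale. The cytosolic Got1 rose, with 1540 ± 144 CPM in ATF4 and 1242 ± 61.1 CPM in GFP (0.31 ± 0.09, edgeR adjusted p = 0.0157). Gpd2, of the glycerol phosphate shuttle, differed by 0.05 ± 0.17. Of these 5 shuttle enzymes, then, 3 fell (all genes 15.6%) and 1 rose (all genes 16.5%).

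Slc25a20, which exchanges acylcarnitines for carnitine, had 147.5, 147.8, 208.2, 227.4 and 168.8 CPM in ATF4, against 217.4, 265.3, 243.5, 284.1 and 236 CPM in GFP. Only ATF4 replicate 4 reached into the GFP range, and the log2 fold change was -0.47 ± 0.13 (edgeR adjusted p = 0.0108). Of 4 acylcarnitine enzymes 2 fell (all genes 15.6%), namely Crat, carnitine acetyltransferase (-0.44 ± 0.10), and Cpt2 (-0.40 ± 0.12). Cpt1a differed by 0.14 ± 0.18 and Cpt1b by -0.29 ± 0.13.

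Among carriers of other amino acids, 1 of 4 tested fell (all genes 15.6%) and 1 rose (all genes 16.5%). Counts this small are not read as a trait of these carriers. Slc25a15, the ornithine carrier (chromosome 8, 22375550 to 22398621), had 23.2, 15.8, 23.5, 32.2 and 23.4 CPM in ATF4, against 40.0, 35.7, 34.5, 39.2 and 36.0 CPM in GFP. The groups did not overlap, and the log2 fold change was -0.65 ± 0.15 (edgeR adjusted p = 0.00273). Slc25a44, which imports branched-chain amino acids in brown fat, had 41.3, 39.7, 43.4, 40.6 and 45.0 CPM in ATF4, against 34.7, 31.8, 36.6, 36.1 and 33.7 CPM in GFP. All ATF4 libraries were the higher ones, by 0.28 ± 0.09 (edgeR adjusted p = 0.0242). That call was lost in fits with no low-count filter (adjusted p = 0.0776), and when ATF4 replicate 5 (0.0612), or replicate 2 (0.0593) or 5 (0.0536) of GFP, was left out. Slc25a38, the glycine carrier needed for haem synthesis, differed by -0.16 ± 0.12, and the basic amino acid carrier Slc25a29 by -0.53 ± 0.26 (edgeR adjusted p = 0.122) with groups that did not overlap. Of the enzymes beside them, Aldh18a1 and Pycr1 of proline synthesis rose by 5.19 ± 0.11 and 6.38 ± 0.24, whereas Oat, ornithine aminotransferase, and Glud1 fell by 0.39 and 0.49 on the log2 scale.

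Among the nucleotide and cofactor carriers, 1 member rose with a small p-value. Slc25a33, a pyrimidine nucleotide carrier (chromosome 4, 149744036 to 149774267), had 94.0, 75.5, 104, 110 and 83.8 CPM in ATF4, against 32.5, 55.8, 33.7, 35.6 and 38.3 CPM in GFP. No ATF4 library fell within the GFP range, and the log2 fold change was 1.25 ± 0.17 (SE, edgeR adjusted p = 2.1e-05). Its relative Slc25a36 had 35.8, 31.4, 25.4, 49.8 and 39.9 CPM in ATF4 and 29.4, 24.4, 23.4, 36.7 and 40.5 CPM in GFP, overlapping groups that differed by 0.24 ± 0.19 (edgeR adjusted p = 0.362). Slc25a32, named for folate and also a FAD carrier, differed by -0.02 ± 0.16, with 14.3 CPM in ATF4 and 14.5 CPM in GFP. Of 5 genes listed for the mitochondrial folate cycle, 3 rose (all genes 16.5%) and 2 fell (all genes 15.6%) in the same libraries. Shmt2, Mthfd2 and Mthfd1l rose by 3.17 ± 0.10, 9.01 ± 0.26 and 6.67 ± 0.28. Mthfd2l (-0.88 ± 0.20) and Gcsh (-0.47 ± 0.15) fell. The S-adenosylmethionine carrier Slc25a26 differed by -0.32 ± 0.16 (edgeR adjusted p = 0.134).

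Slc25a39, required for glutathione import into mitochondria (chromosome 11, 102402969 to 102408675), had the smallest p-value of the family. Its levels were 410.7, 313, 474.5, 397 and 385.9 CPM in ATF4 and 184.8, 198, 214, 197.8 and 198.8 CPM in GFP. The lowest ATF4 library was well above the highest GFP library (0.996 ± 0.105, edgeR adjusted p = 9.5e-07). Slc25a40, a close relative, differed by -0.27 ± 0.14 (edgeR adjusted p = 0.158), with 10.8 ± 1.58 CPM in ATF4 and 13.0 ± 1.85 CPM in GFP. The mitoferrins bring iron to the matrix. Slc25a28 had 29.3, 39.7, 22.6, 18.02 and 15.6 CPM in ATF4 and 23.9, 26.3, 19.0, 19.8 and 17.1 CPM in GFP (0.24 ± 0.24). Slc25a37, the mitoferrin of red cell precursors, had 12.1, 17.7, 14.1, 11.6 and 11.7 CPM in ATF4 and 12.1, 11.2, 14.7, 10.1 and 12.8 CPM in GFP (0.14 ± 0.17). Both mitoferrins overlapped between the groups and were not called. Of 4 haem enzymes 2 fell (all genes 15.6%). Alas1, the first enzyme, and Fech, the last, fell by 0.92 and 0.69 on the log2 scale, and Cpox and Ppox were not called.

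The 3 relatives of the uncoupling proteins were scarce. Slc25a30 averaged 3.55 ± 1.72 CPM in ATF4 and 1.34 ± 0.393 CPM in GFP (1.41 ± 0.33, edgeR adjusted p = 0.00349), and only ATF4 replicate 4 overlapped the GFP libraries. Slc25a14 averaged 4.72 ± 0.609 CPM in ATF4 and 1.92 ± 0.812 CPM in GFP (1.30 ± 0.28, edgeR adjusted p = 0.00157), with no overlap. The largest fold changes of the family thus belonged to members of few counts. Slc25a27 differed by 0.64 ± 0.34 (edgeR adjusted p = 0.162). Slc25a34 (chromosome 4, 141618819 to 141623891), a less well characterised member, had the lowest log2 fold change, -0.83 ± 0.20 (edgeR adjusted p = 0.00426). It had 107, 133, 97.8, 101 and 83.7 CPM in ATF4 and 210, 148, 202, 171 and 198 CPM in GFP, with no overlap. Its closest relative by number, Slc25a35, differed by -0.49 ± 0.21 (edgeR adjusted p = 0.0795). The citrate carrier Slc25a1 and the dicarboxylate carrier Slc25a10 differed by 0.80 ± 0.33 and -0.45 ± 0.19 without passing the test. The outer membrane protein Slc25a46 differed by -0.33 ± 0.15, Slc25a45 by 0.78 ± 0.31 and Slc25a47 by 0.19 ± 0.27.

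**Figure D3:**
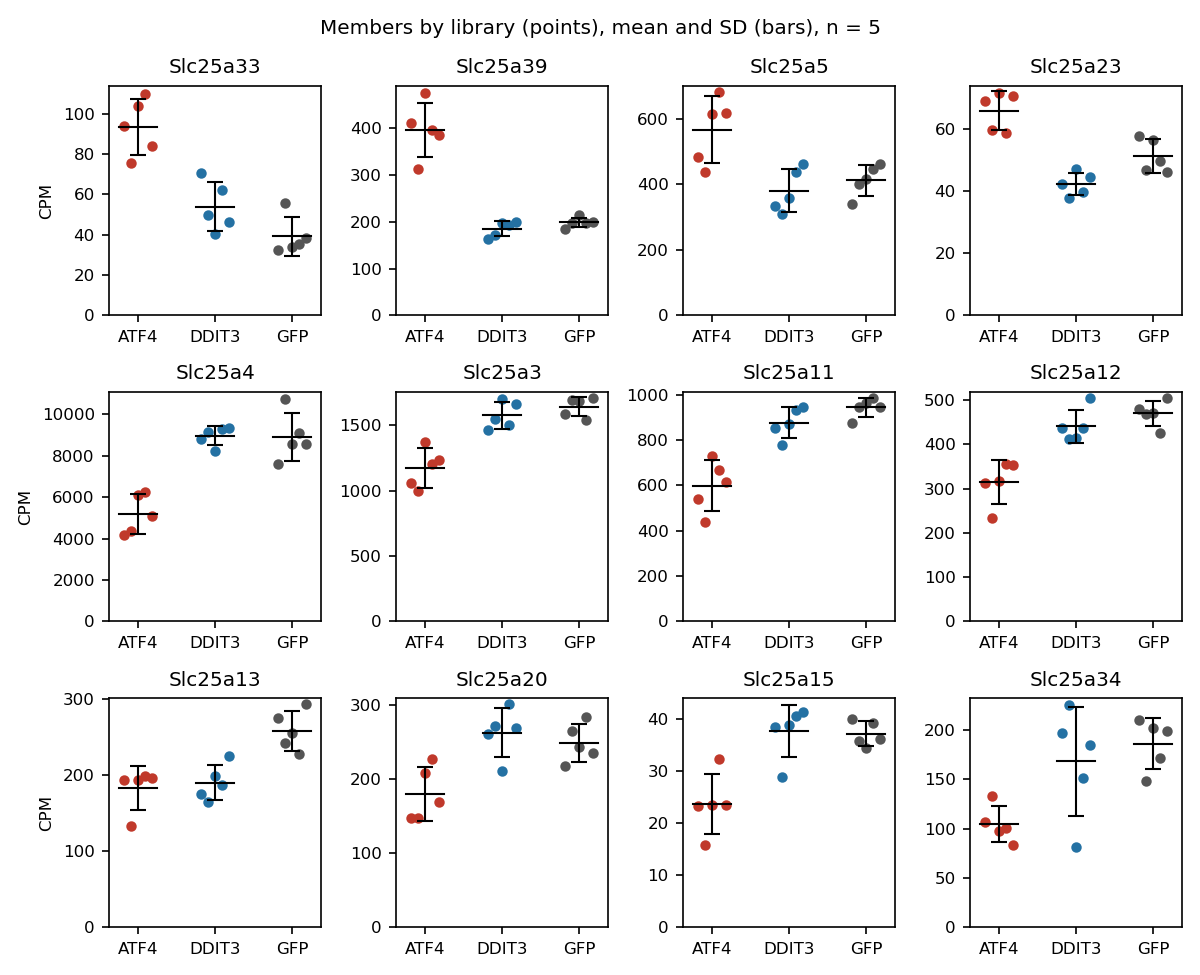
CPM of 12 members in each library (points) with the mean and SD of 5 libraries (bars), for ATF4, DDIT3 and GFP from left to right in each panel. The top row holds 4 of the members that rose in ATF4 against GFP and the lower rows hold 8 that fell. Slc25a13 is the panel in which DDIT3 libraries also lie below all GFP libraries.

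DDIT3 against GFP gave 0 called members of 37 by edgeR, where 0.863% of all genes tested were called (0.525% higher, 0.339% lower). At an unadjusted p below 0.05 there were 4 of the 37 members, where 9.71% of all genes tested were below it. Beside Slc25a13 these were Slc25a14 (0.64 ± 0.29, edgeR adjusted p = 0.457), Slc25a23 (-0.28 ± 0.10, 0.298) and Slc25a33 (0.46 ± 0.17, 0.311). Log2 fold changes lay between -0.442 and 0.642, with SEs of 0.0909 to 0.352. Of the abundant members, Slc25a4 differed by 0.01 ± 0.12, Slc25a3 by -0.06 ± 0.09 and Slc25a11 by -0.11 ± 0.11. Slc25a39 differed by -0.10 ± 0.10, Slc25a5 by -0.12 ± 0.14, Slc25a12 by -0.09 ± 0.11 and Slc25a20 by 0.08 ± 0.13. Citrin had the smallest p-value. Slc25a13 had 174.9, 165.1, 198.3, 187.1 and 224.6 CPM in DDIT3, against 275.1, 241.7, 254.4, 226.9 and 292.9 CPM in GFP, and was the only tested member without overlap (2.86% of all genes). Its log2 fold change was -0.44 ± 0.12 (edgeR adjusted p = 0.113). It and Ucp2 are singled out here after their values were seen. DESeq2 called it (adjusted p = 0.0291), as did the fit with the replicate number as a block (edgeR adjusted p = 0.0131) and the fit without ATF4 replicate 2 (0.0298), and over 21 alternatives the adjusted p ran from 0.0131 to 0.300. The authors' deposited table for this comparison called Slc25a13 lower and no other member.

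ATF4 against DDIT3, the direct test of the difference between the factors, called 15 of 37 members (all genes 33.8%), 6 higher (17.8%) and 9 lower (16.0%) in ATF4, and 11 did not overlap (22.6%). The ATF4 libraries are the same as in the comparison with GFP, so the values are given side by side and are not independent of it. Here too markers differed: 9 of 10 endothelial, 4 of 7 pericyte and smooth muscle and 3 of 7 tested fibroblast markers were higher in ATF4. Of the cardiomyocyte markers 4 of 8 were lower, as was 1 of 4 atrial markers, and 0 of 3 tested leukocyte markers were called. Their part in these carrier calls was not tested. Slc25a39 had 410.7, 313, 474.5, 397 and 385.9 CPM in ATF4, against 164.1, 172.1, 197.6, 192.8 and 199.5 CPM in DDIT3 (1.10 ± 0.11, edgeR adjusted p = 2.6e-07). Slc25a4 had 8802, 9140, 8235, 9303 and 9343 CPM in the DDIT3 libraries, all above the 6263 CPM of the highest ATF4 library (-0.79 ± 0.12, edgeR adjusted p = 6.9e-05). Slc25a33 stood at 70.7, 49.8, 40.5, 62.2 and 46.5 CPM in DDIT3, below every ATF4 library (0.79 ± 0.17, edgeR adjusted p = 0.00146). The other members higher in ATF4 were Slc25a23 (0.64 ± 0.10), Slc25a5 (0.58 ± 0.14), Slc25a45 (0.98 ± 0.31) and Slc25a36 (0.54 ± 0.19). The call of Slc25a36 was lost without any of 5 single libraries (ATF4 replicates 1, 4 and 5, DDIT3 replicates 1 and 3, adjusted p up to 0.119) and that of Slc25a45 without ATF4 replicate 1 or DDIT3 replicate 4 (up to 0.0528). Further members lower in ATF4 were Slc25a34 (-0.69 ± 0.20), Slc25a15 (-0.67 ± 0.15), Slc25a35 (-0.64 ± 0.21), Slc25a11 (-0.55 ± 0.11), Slc25a20 (-0.55 ± 0.13), Slc25a12 (-0.49 ± 0.11) and Slc25a3 (-0.43 ± 0.09). The call of Slc25a35 was lost without ATF4 replicate 2, ATF4 replicate 5 or DDIT3 replicate 3 (up to 0.0638). It was also lost with both number 2 libraries of ATF4 and DDIT3 left out (edgeR adjusted p = 0.0798). Slc25a13 differed by -0.06 ± 0.12 between the factors (edgeR adjusted p = 0.760).

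Ratios within 4 pairs of related carriers do not depend on library scaling, and were compared in 12 two-sided exact permutation tests over libraries, whose smallest possible p is 0.00794. The Slc25a5 to Slc25a4 ratio of TPM, ubiquitous over muscle ADP/ATP carrier, was 0.0978 ± 0.0083 in ATF4, 0.0379 ± 0.00574 in DDIT3 and 0.0418 ± 0.00555 in GFP (SD, n = 5). In ATF4 it ran from 0.0893 to 0.108, above all libraries of DDIT3 (0.0302 to 0.0442) and of GFP (0.0334 to 0.0482). Its log2 difference was 1.23 against GFP and 1.38 against DDIT3 (exact p = 0.00794 and Benjamini-Hochberg adjusted p = 0.0238 in both). DDIT3 differed from GFP by -0.144 (exact permutation, adjusted p = 0.402). The part that the higher endothelial and lower cardiomyocyte markers of ATF4 had in this ratio was not tested. Nor was the part of reads from the processed copies of Slc25a5. The Slc25a13 to Slc25a12 ratio, citrin over Aralar, stood apart in the other factor's group. It was 0.375, 0.375, 0.448, 0.401 and 0.417 in DDIT3 libraries, against 0.537, 0.483, 0.507, 0.499 and 0.543 in GFP libraries. No DDIT3 library reached the GFP range (log2 difference -0.352, exact permutation, adjusted p = 0.0238). This ratio rests on the Slc25a13 values given above, where the gene was not called (edgeR adjusted p = 0.113), and is not independent of them. In ATF4, where both genes fell, the ratio was 0.545 ± 0.0286, which was higher than in DDIT3 by 0.437 (exact permutation, adjusted p = 0.0238) and differed from GFP by 0.0854 (adjusted p = 0.190).

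The other pairs showed no called difference. The Slc25a36 to Slc25a33 ratio was 0.242 ± 0.0559 in ATF4, 0.292 ± 0.0634 in DDIT3 and 0.506 ± 0.160 in GFP. GFP replicate 2, at 0.268, lay among the libraries of both other groups, and the adjusted exact p against GFP was 0.0571 for ATF4 and 0.0794 for DDIT3. Without GFP replicate 2 both became 0.0317. Leaving out any other single library gave an adjusted exact p of 0.0762 to 0.114 for ATF4 and 0.0952 to 0.159 for DDIT3. The ratio of the mitoferrins Slc25a28 and Slc25a37 was 4.96 ± 1.28 in ATF4, 5.51 ± 1.10 in DDIT3 and 4.83 ± 1.23 in GFP, with wide overlap.

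**Figure D4:**
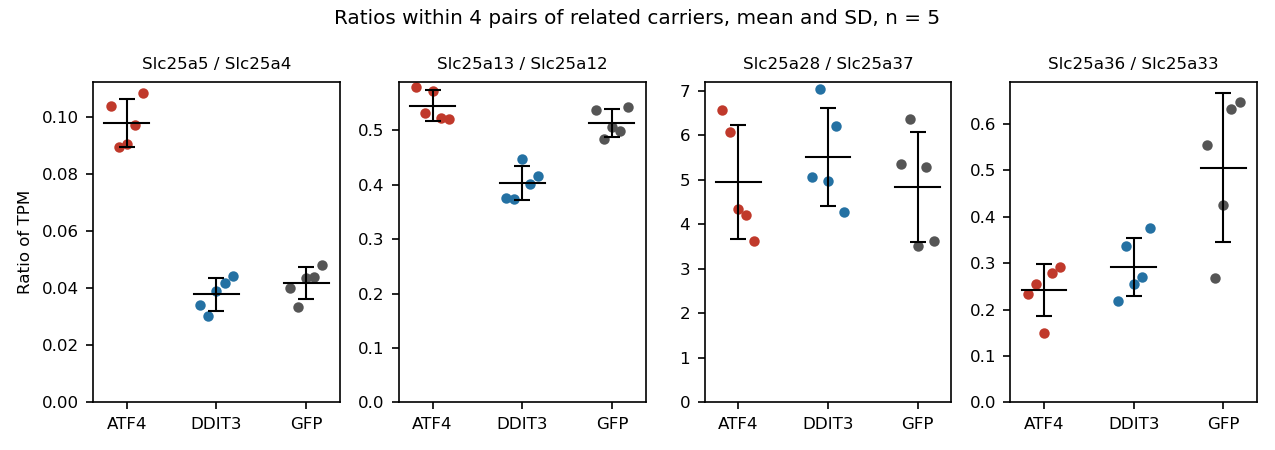
Ratio of TPM within 4 pairs of related carriers in each library (points) with mean and SD of 5 libraries (bars), for ATF4, DDIT3 and GFP. The Slc25a5 to Slc25a4 ratio is at 0.0893 or above in ATF4 and at 0.0482 or below in DDIT3 and GFP, and the Slc25a13 to Slc25a12 ratio is at 0.448 or below in DDIT3 and at 0.483 or above in GFP.

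Too few counts for a test were found in 7 members. Slc25a48 had 0 counts in all 15 libraries, which allows up to 0.0269 counts per 1000000 (3 counts of the total, counting error only). Slc25a41 had 1 count, in ATF4, and Slc25a21 had 1 in ATF4, 0 in DDIT3 and 1 in GFP. Slc25a43, on the X chromosome, had 6, 4 and 6 counts over the 5 libraries of ATF4, DDIT3 and GFP in sum. The ornithine carrier Slc25a2 had 13, 3 and 8 in the same order, and the glutamate carrier Slc25a18 had 17, 3 and 4. Slc25a31, the ADP/ATP carrier of the testis, had 12, 26 and 7, of which 18 lay in DDIT3 replicate 4 alone.

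Mitochondrial carriers and pores outside the symbol rule were followed in a list of 15 genes, of which 13 were tested. In ATF4 against GFP 3 rose (all genes 16.5%), 4 fell (all genes 15.6%) and 6 were not called. The median log2 fold change of this list was -0.132 (all genes 0.0244). The sideroflexins Sfxn1, a serine carrier, and Sfxn3 rose by 1.44 ± 0.19 and 1.37 ± 0.24 (edgeR adjusted p = 1.1e-05 and 3.0e-04). The voltage-dependent anion channels of the outer membrane split: Vdac3 rose by 0.42 ± 0.10, while Vdac1 and Vdac2 fell by 0.66 and 0.27 on the log2 scale. Mpc2, a subunit of the pyruvate carrier listed under its older symbol Brp44, stood at 267 ± 89.7 CPM in ATF4 and 447.2 ± 98.6 CPM in GFP (-0.74 ± 0.20, edgeR adjusted p = 0.00772), and Mpc1 (Brp44l) differed by -0.25 ± 0.12. Mtch2 fell by 0.34 on the log2 scale (edgeR adjusted p = 0.0431). Its call was lost under 10 of 21 alternatives, among them without replicate 1, 2 or 5 of ATF4 or 2, 3, 4 or 5 of GFP (up to 0.104). That of Vdac2 was lost under 7, among them without replicate 1 or 2 of ATF4 or 3 or 5 of GFP (up to 0.0704). In DDIT3 against GFP the 1 call of this list was Ucp2, an uncoupling protein that the symbol rule leaves out of the members counted above. Ucp2 stood at 289 ± 48.4 CPM in DDIT3 and 191 ± 29.9 CPM in GFP (0.59 ± 0.13, edgeR adjusted p = 0.0445). Of its 21 alternatives 11 lost that call, among them those without replicate 4 or 5 of ATF4, 1, 2 or 3 of DDIT3, or 1, 2, 3 or 5 of GFP (adjusted p up to 0.154). In DDIT3 against GFP edgeR called 0 of 30 tested enzymes that use the carried substrates, where 0.863% of all genes were called. Of these 30 enzymes, 7 rose (all genes 16.5%) and 14 fell (all genes 15.6%) in ATF4 against GFP. Their median log2 fold change there was -0.281 (all genes 0.0244). Of those that fell, Gcsh lost its call without ATF4 replicate 1 or GFP replicate 4 (adjusted p up to 0.0640), and Ogdh without ATF4 replicate 3 or GFP replicate 5 (up to 0.0725). Mcart1, an older symbol of Slc25a51, the NAD carrier, lies outside the rule and stood at 57.5 ± 9.39 CPM in ATF4 and 68.7 ± 6.64 CPM in GFP (-0.26 ± 0.12, edgeR adjusted p = 0.119).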

How the data were processed

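STAR, featureCounts, DESeq, DESeq2 and the build mm10 are named, per the submitters' processing notes, without versions or options. The authors' count table holds raw counts per gene in 15 libraries and a gene length, taken as bases. The authors' deposited tables of their 2 comparisons with GFP hold, per the file headers, a mean signal, a log2 fold change with its SE, a test score and p-values; of these only the calls were used. Groups and replicate numbers came from the titles. Nothing says which libraries are separate animals, so p-values measure the spread between these libraries. Libraries of a group were no copies of each other (chi-square per degree of freedom 8.60 to 50.4).

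Counts were tested with edgeR 4.0.16 (TMM, filterByExpr, robust quasi-likelihood) in 1 fit of 15 libraries with group as the only term, adjusted over 11814 genes (Benjamini-Hochberg, threshold 0.05; DESeq2 1.42.0 as an alternative). Fold changes are ATF4 or DDIT3 over GFP, or ATF4 over DDIT3. TPM, from counts and the deposited length, order genes; CPM compare groups. The kit marks no strand, and 10 tested members overlap another gene. The members, lists and tests were chosen with earlier results of these data known. Per-library values are given for members called with at least 5 CPM in the higher group (up to 8 each way), the 5 most abundant and the 4 pairs. Deviations of same-numbered libraries from their group means were correlated. For DDIT3 and GFP (0.205 to 0.511) all 5 correlated best with their own number. For ATF4 and DDIT3 (0.135 to 0.497) number 1, at 0.135, correlated better with another number. For ATF4 and GFP (0.0783 to 0.386) number 2, at 0.0783, did so. Of the tested members, 1 is counted in the totals but not reported by name here, and the erythroid marker list is not reported here.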

Additional observations from a re-analysis of the deposited data

Results flagged for a closer look

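In 6 of 120 groups of 5 values, 1 library lay far from the other 4 (a gap above 0.71 of the group's range); chance flags about 1 group in 20. In DDIT3, Slc25a12 stood at 504.9 CPM in replicate 5 with the nearest other library at 437 CPM, Slc25a15 at 28.9 CPM in replicate 2 (nearest 38.5) and Slc25a36 at 16.9 CPM in replicate 3 (nearest 25.3). In ATF4, Slc25a13 stood at 132.4 CPM in replicate 2 (nearest 193.4). In GFP, Slc25a33 stood at 55.8 CPM in replicate 2 (nearest 38.3) and Slc25a46 at 212.1 CPM in replicate 5 (nearest 158.5), the library labelled SMART-Seq3.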

How the results depend on the processing

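Of the 17 members called in ATF4 against GFP, 15 passed under all 21 alternatives of scaling, test, filter, samples and left-out libraries, the exceptions being Slc25a44 and Slc25a5; of the 15 called in ATF4 against DDIT3, 12 did. None of these changed direction. Leaving out single libraries gave 16 to 18 members (6 to 8 higher, 10 to 11 lower) in ATF4 against GFP, 13 to 16 (4 to 7 higher, 8 to 9 lower) in ATF4 against DDIT3 and 0 to 1 (lower) in DDIT3 against GFP. DDIT3 against GFP also gave 1 call, lower, with DESeq2 and with the replicate block. Both called more genes in all in that comparison. The block called 2.7% of all genes, against 0.9% without it, and DESeq2 called 227 genes, against 102 in the main fit. With the replicate number as a block, ATF4 against GFP had 24 members called, 16 of them lower, where 43.1% of all genes tested were called against 32.2% without it, though the numbers do not pair all of these samples (4 of 5 correlated best with their own number); the block gave 18 in ATF4 against DDIT3 (44.3% of all genes). A minimum of 1.5-fold left 9 members in ATF4 against GFP (4 higher, 5 lower) and 9 in ATF4 against DDIT3 (4 higher, 5 lower). The share of all genes that pass this minimum is not given here, so these counts have no background beside them. DESeq2 called the same 17 in ATF4 against GFP. For the ratios, sign flips of same-numbered pairs (a replicate block) cannot go below 0.0625, so that the differences of 1.23, 1.38, -0.352 and 0.437 had an adjusted exact p of 0.125. Leaving out single libraries, the mitoferrin ratio in ATF4 against GFP ran from -0.0696 to 0.151, and the Slc25a36 to Slc25a33 ratio from -1.25 to -0.871 in ATF4 and from -0.964 to -0.645 in DDIT3. The Slc25a5 to Slc25a4 ratio in ATF4 against GFP stayed within 1.16 to 1.29. No protein sequences were searched for the carrier signature. Depth limits the members of few counts, whose SEs reached 0.341 in ATF4 against GFP.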
